A study of Mus musculus with 2 samples.

Results

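Thymic cells sorted on proteins of the regulatory T (Treg) lineage were compared by their transcripts. Those in which neither Foxp3 nor Il2ra was detected were set against those in which both were. The sort does not show that each cell belongs to that lineage. Every cell with at least 500 genes, at most 10% mitochondrial counts, at least 80% of its hashtag counts from 1 hashtag and at least 5000 unique molecular identifiers (UMIs, each standing for 1 captured transcript) was classed by its own counts. Of 4798 barcodes, 2659 cells qualified. Those with 0 UMIs of Foxp3 and 0 of Il2ra numbered 1794 (neither), and those with at least 1 UMI of each numbered 263 (both). The remaining cells had Foxp3 only (212 cells) or Il2ra only (390 cells) and are used as the nearest classes outside the comparison. The classes are defined by these 2 counts, so the levels of Foxp3 and Il2ra are given as a description and not as a result.

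The cells came from 2 C57BL/6 mice, 1 per genotype. The control mouse carried Foxp3eGFP, a reporter that marks Foxp3-expressing cells with green fluorescent protein. The other carried the same reporter and lacked lymphotoxin alpha (Foxp3eGFPxLta-/-, below Lta-/-), so both mice shared the reporter. Thymocytes were depleted of CD8+ and CD11c+ cells, and live CD4+CD8-CCR6-CD3e+ cells with surface CD25 (the product of Il2ra), with eGFP, or with both were sorted, hashtagged by mouse and captured together. No age is given for the mice. Selection was thus on protein, and the absence of a UMI does not show the absence of the protein.

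Treg cells arise in the thymic medulla from CD4 single-positive thymocytes that bind self-antigen strongly. A strong T cell receptor signal induces CD25, the high-affinity subunit of the IL-2 receptor, together with costimulatory receptors of the tumour necrosis factor receptor (TNFR) family such as OX40 and GITR. IL-2 then acts through STAT5 to induce Foxp3, the transcription factor that defines the lineage. Foxp3 can also precede CD25, so precursors with either protein alone are known. Mature Treg cells express Ctla4, Ikzf2 (Helios) and Nrp1, while immature CD4 single-positive cells keep Ccr9 and Sox4 and gain the exit receptor S1pr1 as they mature.

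Neither genotype had a second mouse, and cells do not stand in for mice, so no test was made. All intervals are exact 95% intervals and cover counting error only. Levels are UMIs per 1000000 UMIs (CPM) of the summed cells of a class in a mouse, and ratios are log2 of the CPM without either transcript over that with both. A gene counted as higher or lower when its ratio passed 1.5-fold in both mice. Kept cells numbered 1348 from the Foxp3eGFP mouse and 1311 from the Lta-/- mouse, and summed depth per class ranged from 797445 to 7840020 UMIs. Genotypes follow the deposited hashtag names, which number the antibodies differently from the protocol. Lta (chromosome 17, 35203165 to 35205578, GRCm38) was at 15.1 CPM (118 UMIs) without either transcript and 74.8 CPM (89 UMIs) with both in the Foxp3eGFP mouse. In cells labelled Lta-/- it was at 3.29 CPM (25 UMIs) and 6.01 CPM (5 UMIs). The part of the gene that was deleted is not given, so these 3' counts were not read as intact transcript.

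The cells without either transcript were the majority in both mice. They made up 64.6% (62.0 to 67.2) of the Foxp3eGFP cells, which is 871 of 1348, and 70.4% (67.9 to 72.9) of the Lta-/- cells, which is 923 of 1311. Cells with both made up 10.98% (148 cells) and 8.77% (115 cells). The cells without either transcript were not the shallower ones. Their median depth was 7188 UMIs in the Foxp3eGFP and 6683 in the Lta-/- mouse, against 6671.5 and 6409 for cells with both. Median mitochondrial share was 1.55% and 1.57%, against 1.74% and 1.73%.

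The share without either transcript was highest among the deepest cells. From 5000 to under 6000 UMIs, 60.5% of Foxp3eGFP and 68.5% of Lta-/- cells had neither transcript, and at 12000 UMIs or more 74.1% and 81.7% did. The Lta-/- series was not monotonic, at 70.9% and 66.9% in the bins between. Cells with proliferation transcripts, described below, were among the deepest. After thinning every cell to 5000 UMIs and classing it again, 69.4% and 74.6% had neither, and 8.01% and 6.71% had both.

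The cells with both transcripts lay close to the detection limit. Among them Foxp3 had a median of 2 UMIs in the Foxp3eGFP and 1 in the Lta-/- mouse, and Il2ra a median of 2 in each. Exactly 1 UMI of each gene was found in 25 and 19 of these cells, and at least 2 of each in 59 and 32. Of the cells just outside the class, 59 and 61 had a single Foxp3 UMI and no Il2ra, and 113 and 79 a single Il2ra UMI and no Foxp3. Within 500 UMIs under the depth limit another 121 and 153 cells had neither transcript and 22 and 19 had both, and within 500 UMIs above it 141 and 158 had neither and 28 and 21 both. Droplets with both hashtags hold cells of both mice and entered no class. There were 167 of them at this depth, of which 20.4% had both transcripts and 48.5% neither, at a median of 10859 UMIs. Droplets with 2 cells of the same mouse cannot be seen by hashtag, and their part in the class with both was not tested.

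The classes differed in which cell states they held. Clustering without Foxp3, Il2ra, Lta and Ltb gave 9 clusters, numbered from 0. Clusters 0 and 6 were mature Treg-like, each with 9 of 11 mature Treg markers at least 1.5-fold above the other cells. Of 12 interferon markers 8 were higher in cluster 6 too, and it was led by Socs2, Ly6c1 and Rgs1. Cluster 1 was agonist-signalled precursor-like, with 7 of 12 markers, and was led by the chemokine genes Ccl4 and Xcl1 and by Tnfrsf9 (4-1BB). Cluster 0 had 5 of these 12 markers higher too (Nr4a1, Nr4a3, Egr2, Egr3 and Cd69). Of them, Egr2, Egr3 and Cd69 were not higher in cluster 1, so these markers are not particular to it. Cluster 3 was immature CD4 single-positive-like, with 7 of 8 markers and Ccr9 in the lead. Cluster 4 was proliferating-like, with 12 of 12 markers. Cluster 2 stayed unnamed, since it was led by Rflnb, Il6ra and Igfbp4 and had markers of both interferon response (10 of 12) and mature CD4 single-positive cells (8 of 10) higher. Cluster 5 was led by Akr1c18 and, among replication genes, E2f1 and Ung. Cluster 7 mixed myeloid, plasma cell and effector genes. Cluster 8 had 12 of 12 proliferating markers higher, as cluster 4 did, and 7 of 10 markers of double-positive thymocytes, such as Dntt and Arpp21. Clusters 7 and 8 were left unnamed.

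Cells with both transcripts were concentrated in the mature Treg-like clusters. Cluster 0 held 43.9% of them in the Foxp3eGFP mouse (35.8 to 52.3) and 53.9% in the Lta-/- mouse (44.4 to 63.3), and cluster 6 held 24.3% and 21.7%. Of the cells without either transcript, cluster 0 held 11.8% and 13.2%, and cluster 6 held 3.67% and 2.27%. These intervals did not overlap in either mouse. In the 2 mice together, 225 cells without either transcript lay in cluster 0 and 53 in cluster 6.

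Cells without either transcript were spread over the other states. Cluster 2 held 24.6% and 25.7% of them, against 4.05% and 4.35% of the cells with both. The immature CD4 single-positive-like cluster 3 held 8.61% (6.83 to 10.7) in the Foxp3eGFP and 14.95% (12.7 to 17.4) in the Lta-/- mouse. None of the 263 cells with both lay there, which allows a share of up to 1.14% when a count of 0 is given a limit of 3 cells (the exact 95% upper limit is 1.39%). The proliferating-like cluster 4 held 15.6% and 8.67%, against 3.38% and 1.74%. The agonist-signalled precursor-like cluster 1 was large in both classes, with 25.1% and 22.1% of the cells without either and 17.6% and 13.0% of those with both. Its intervals overlapped in each mouse.

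**Figure D1:**
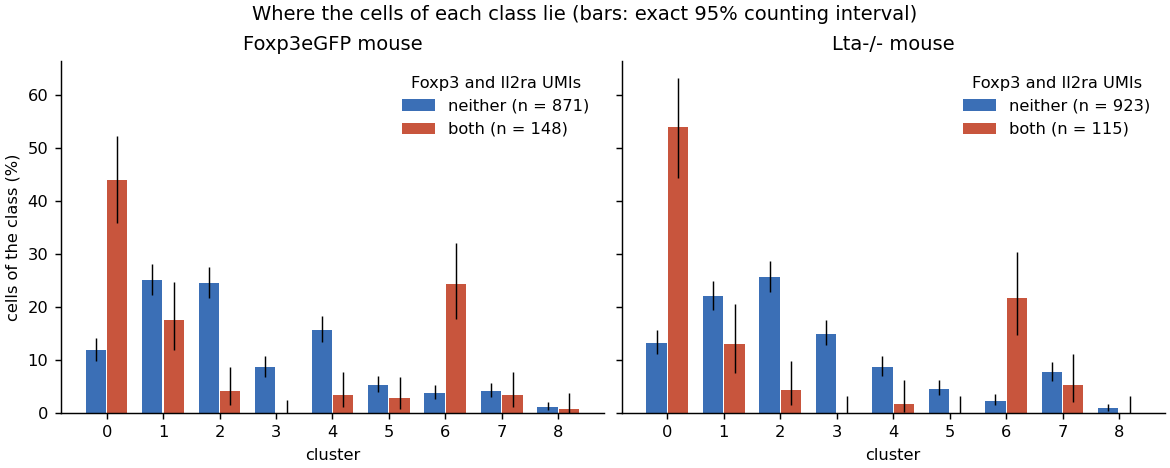
Share of each class (percent of its cells) in each of the 9 clusters, for the Foxp3eGFP mouse (left) and the Lta-/- mouse (right). Blue bars are cells with neither transcript, red bars cells with both, and error bars are exact 95% counting intervals. Red bars peak in clusters 0 and 6, blue bars are spread over clusters 1 to 4, and no red bar stands in cluster 3.

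Across genes, Treg and IL-2 response transcripts were lower in cells without either transcript, and transcripts of cell division and of immature thymocytes were higher. Of 2738 genes with a mean of at least 50 CPM over the classes in each mouse, 111 (4.05%) were at least 1.5-fold higher and 132 (4.82%) at least 1.5-fold lower in both mice. In the Foxp3eGFP mouse alone the shares were 6.1% and 6.43%, and in the Lta-/- mouse alone 7.85% and 6.57%. The median of all 2738 ratios was 0.06 and 0.09. No gene among them passed 1.5-fold in opposite directions in the 2 mice. The filter reads both classes, so a gene present in 1 class alone can pass it. When the cells without either transcript were weighted to the cluster makeup of those with both, 18 genes were higher and 54 lower.

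**Figure D2:**
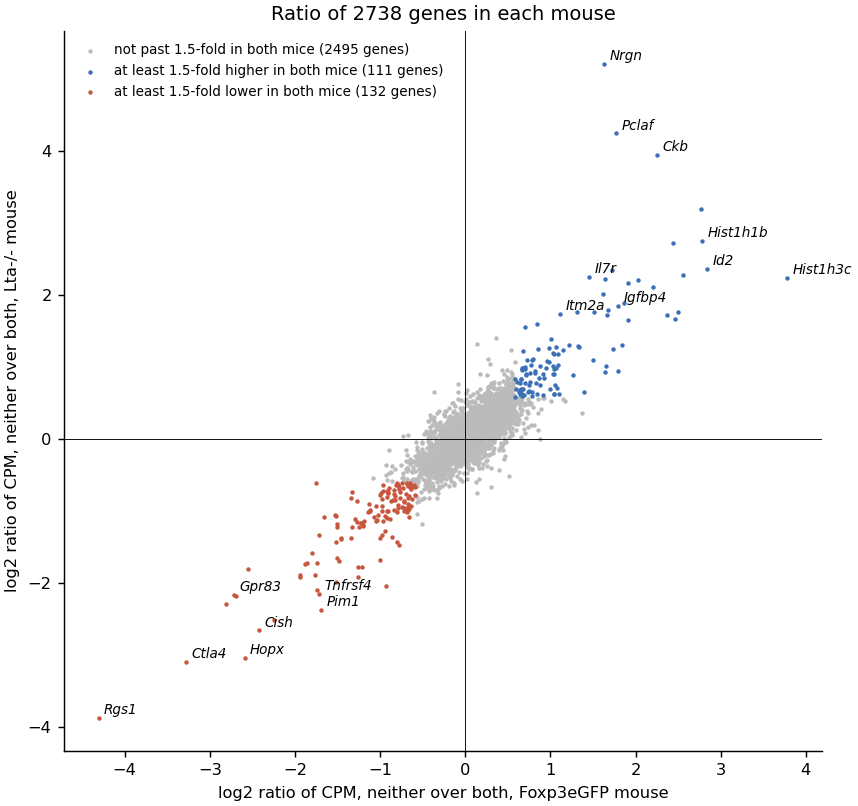
Each point is 1 of 2738 genes, with its log2 ratio (neither over both) in the Foxp3eGFP mouse on the horizontal axis and in the Lta-/- mouse on the vertical axis. Blue points (111) are at least 1.5-fold higher and red points (132) at least 1.5-fold lower in both mice, and the points lie along the diagonal with Rgs1 lowest in both mice.

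Of the Treg core list, 8 of the 11 members measured (of 20 listed) were lower in both mice and 0 higher, against 4.82% and 4.05% of all genes. The median ratio of the 11 was -1.34 and -1.38. Rgs1 (chromosome 1, 144244669 to 144249104) encodes a brake on G protein-coupled chemokine receptor signalling. It was at 17.6 CPM without either transcript and 348 CPM with both in the Foxp3eGFP mouse, and at 23.4 and 345 CPM in the Lta-/- mouse. Its ratios of -4.30 (-4.59 to -4.02) and -3.88 (-4.16 to -3.61) were the lowest of all genes called. Ctla4 (chromosome 1, 60909025 to 60915832), the inhibitory receptor through which Treg cells restrain antigen-presenting cells, was at 18.8 against 181 CPM and at 18.4 against 157 CPM. Its ratios were -3.27 (-3.59 to -2.97) and -3.10 (-3.45 to -2.74). Each gene was low without either transcript and high with both in each mouse, and no interval came near 0.

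The other measured members of the list, those past the filter, differed less. Gpr83, an orphan receptor of Treg cells, had ratios of -2.72 and -2.17, and Ikzf4 (Eos), a Foxp3 partner, had -1.76 and -1.90. Ikzf2, outside the naming rule and chosen after its values were seen, was at 638 against 1174 CPM and at 566 against 1227 CPM, ratios of -0.88 and -1.12. Thus by ratio, though not by the shares of cells given below, the classes differed far less in the transcript of Helios than in that of Ctla4. Lrrc32, which encodes the surface receptor for latent TGF-beta, did not pass the filter in either mouse, at 3.32 against 75.6 CPM and 3.55 against 92.6 CPM. Gpx4, Cd81 and Icos were the measured members not called, and Icos was at 0.54 and 0.48.

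The difference was also seen cell by cell. After thinning to 5000 UMIs, Ctla4 was detected in 8.84% and 8.34% of the cells without either transcript and in 52.0% and 52.2% of those with both. The unthinned shares were 10.6% and 11.1%, against 58.8% and 57.4%. In cluster 3, which held no cell with both transcripts, Ctla4 was found in 4.55% of the thinned cells. Ikzf2 was detected in 48.2% and 45.8% of the thinned cells without either transcript, in 91.9% and 89.6% of those with both and in 18.6% of cluster 3. The cells without either transcript had a median of 5 and 6 UMIs of the 20 Treg core genes together, against 17 and 18 in the cells with both. Of the cells without either, 13.9% (11.7 to 16.4) and 9.32% (7.52 to 11.4) reached the median of the cells with both, a minority in each mouse.

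**Figure D3:**
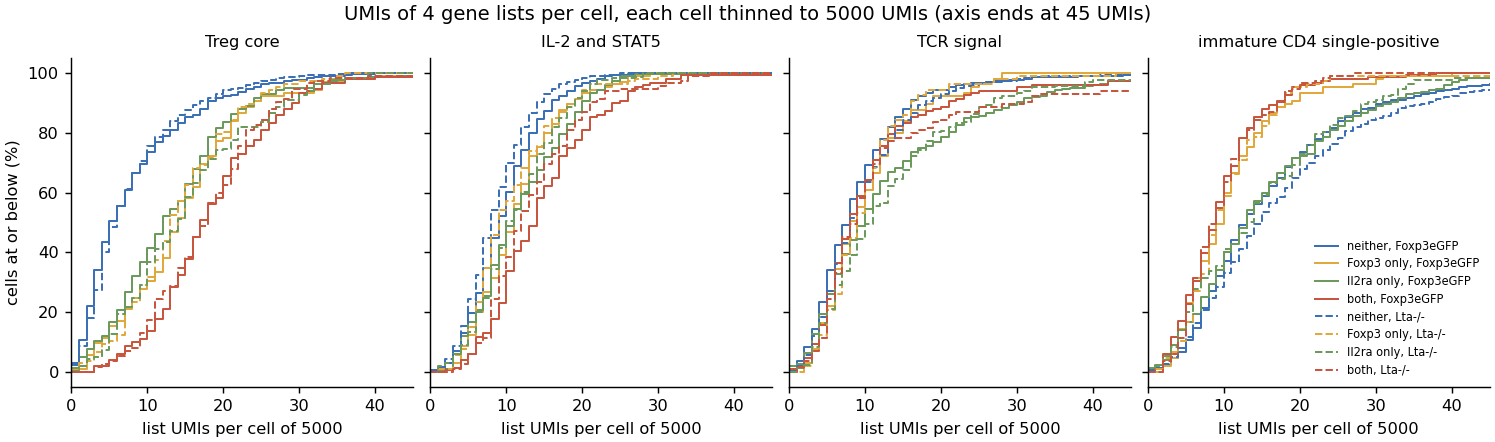
Cumulative share of cells (percent) by their UMIs of 4 gene lists, each cell thinned to 5000 UMIs; colours are the 4 classes, full lines the Foxp3eGFP and broken lines the Lta-/- mouse. For the Treg core list the blue lines (neither) lie far to the left of the red lines (both), with medians of 5 and 6 against 17 and 18. For the TCR signal list they nearly coincide, with medians of 8 and 8 against 8 and 9, and for the immature list the order is turned around.

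IL-2 response genes were lower as well. Of the IL-2 and STAT5 list, 6 of 10 members measured (of 19) were lower in both mice and 0 higher, against 4.82% and 4.05% of all genes. The median ratio was -0.94 and -0.93. Cish, a STAT5-induced feedback inhibitor, was at 29.0 against 155 CPM in the Foxp3eGFP mouse and at 20.1 against 127 CPM in the Lta-/- mouse. The ratios were -2.42 (-2.70 to -2.13) and -2.66 (-3.03 to -2.29). The STAT5-induced kinase gene Pim1 had ratios of -1.69 and -2.38. Il2rb, the beta chain that signals beside CD25, was at -1.94 and -1.89, and Socs1 at -1.05 and -1.14. The shared gamma chain Il2rg and the kinase Jak1 were not called.

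The TNFR genes that accompany Treg selection followed. Of the TNFR superfamily and NF-kB list, 5 of 9 members measured (of 24) were lower and 0 higher, against 4.82% and 4.05% of all genes. Tnfrsf4 (OX40) was at 288 against 947 CPM and at 219 against 975 CPM, ratios of -1.72 and -2.16. Tnfrsf18 (GITR) had ratios of -1.52 and -1.99, the adaptor gene Traf1 -1.75 and -1.72, and the NF-kB subunit gene Rel -1.26 and -1.78. Tnfrsf9 (4-1BB) was not called, at 175 against 155 CPM and 152 against 153 CPM. It stood at 418 and 442 CPM in the cells with Il2ra only, above all other classes. Ltb, the membrane partner of lymphotoxin alpha and a ligand of the family, was at 473 against 997 CPM and 471 against 1001 CPM. Its ratios of -1.08 and -1.09 were alike in the mouse with and the mouse without Lta.

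T cell receptor response genes were lower in part. Of the TCR signal list, 6 of 12 members measured (of 23) were lower and 0 higher, against 4.82% and 4.05% of all genes. The median ratio was -0.40 and -0.70. The immediate early gene Nr4a1 was at 37.2 against 89.0 CPM and 30.9 against 117 CPM, ratios of -1.26 and -1.92. Gadd45b was at 39.8 against 79.8 CPM and 37.6 against 121 CPM. Cd69, an early activation marker that retains cells in the thymus, had -1.04 and -1.13. Cd5, whose level tracks self-reactivity, was at 415 against 424 CPM and 467 against 463 CPM, with intervals that held 0. Per thinned cell, all 23 listed genes together, of whose UMIs Cd5 gave 22.6%, had a median of 8 UMIs in both mice without either transcript and of 8 and 9 with both. The list of dissociation stress genes, many of them immediate early, had 1 of 10 measured members lower (Junb, -1.23 and -1.17) and 0 higher. The same shares of all genes apply, and its medians were -0.06 and 0.01.

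Immature thymocyte genes were higher without either transcript. Of the immature CD4 single-positive list, 5 of 9 members measured (of 15) were higher and 0 lower, against 4.05% and 4.82% of all genes. The median ratio was 0.84 and 1.24. Ccr9 (chromosome 9, 123767211 to 123783457), the receptor for the thymic chemokine CCL25, was at 96.2 against 33.6 CPM in the Foxp3eGFP and at 127 against 37.3 CPM in the Lta-/- mouse. Its ratios were 1.52 (1.06 to 2.01) and 1.77 (1.25 to 2.33). Itm2a had 1.12 and 1.74, Sox4 0.84 and 1.60, and the chromatin organiser Satb1, which is outside the naming rule, 1.14 and 1.24. Nrgn, which encodes a calmodulin-binding protein, had 1.63 and 5.21. The latter rests on 4 UMIs among the Lta-/- cells with both, and 1 cell gave 78.0% of the 59 UMIs of that class in the Foxp3eGFP mouse, where the ratio without it was 3.79 (3.01 to 4.71).

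Genes of double-positive thymocytes, the stage before CD4 commitment, were near the floor in both classes. Only Chchd10 of 12 passed the filter, and it was lower. Cd8a, whose protein was gated out, was found in 2.07% and 3.03% of the thinned cells without either transcript and in 1.35% and 2.61% of those with both.

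Among lineage regulators, Id2, an inhibitor of E proteins, was at 120 against 16.8 CPM (20 UMIs) and 161 against 31.3 CPM (26 UMIs). Its ratios were 2.84 (2.21 to 3.56) and 2.36 (1.81 to 2.98). Tcf7 (TCF-1) had 1.03 and 1.19 and its partner Lef1 0.87 and 0.75, and Myb was lower at -0.91 and -0.76. These 4 were the called genes of 14 measured (of 20) in the list of CD4 and helper lineage regulators. Of all genes, 4.05% were higher and 4.82% lower.

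Maturation genes went both ways. Of the maturation and egress list, 7 of 21 members measured (of 22) were lower and 2 higher, against 4.82% and 4.05% of all genes. The median ratio was -0.39 and -0.43. S1pr1, the receptor that leads mature thymocytes out, was at 128 against 323 CPM and 135 against 353 CPM, ratios of -1.34 and -1.38. The 2 higher members were Il7r, a survival cytokine receptor that is low on Treg cells, and Igfbp4. Il7r (chromosome 15, 9506159 to 9529941) was at 258 against 94.1 CPM and 356 against 74.5 CPM, ratios of 1.45 (1.18 to 1.74) and 2.25 (1.89 to 2.64). Igfbp4 (chromosome 11, 99040005 to 99052655), a secreted binding protein of insulin-like growth factors, was at 341 against 98.3 CPM and 307 against 85.3 CPM, ratios of 1.80 and 1.85. The survival genes Bcl2 (-0.94 and -1.07) and Mcl1 (-0.90 and -0.69) were lower too. They were among 4 lower and 0 higher of 8 apoptosis genes measured (of 18), against the same shares of all genes.

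The cells with a single gate transcript were set beside both classes. S1pr1 was at 295 and 327 CPM with Foxp3 only, near its level with both (323 and 353 CPM), and at 133 and 174 CPM with Il2ra only, near its level with neither (128 and 135 CPM). Nr4a1 went the other way, at 23.8 and 32.6 CPM with Foxp3 only and 105 and 146 CPM with Il2ra only. Tnfrsf4 was at 450 and 439 CPM against 1039 and 1062 CPM, and Itm2a at 259 and 315 CPM against 766 and 790 CPM. Il7r was low in both, at 111 and 102 CPM and at 67.5 and 71.6 CPM. Ctla4 was intermediate in both, at 76.3 and 104 CPM and at 69.0 and 62.4 CPM. The cells without either transcript thus shared low S1pr1 with the Il2ra only cells and low Nr4a1 with the Foxp3 only cells.

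**Figure D4:**
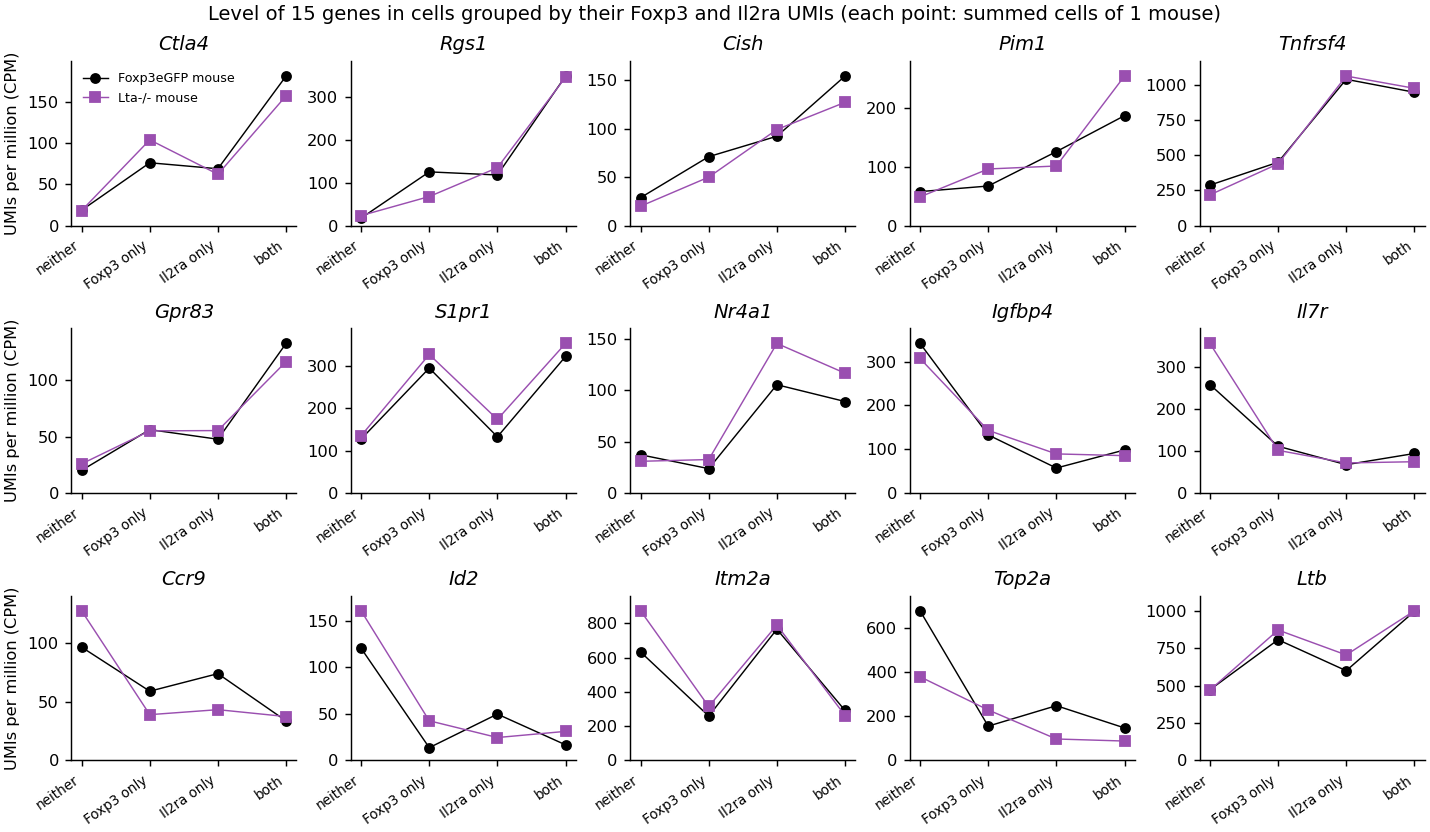
Level of 15 genes (CPM of the summed cells of 1 mouse) in cells with neither transcript, Foxp3 only, Il2ra only and both; circles are the Foxp3eGFP and squares the Lta-/- mouse. S1pr1 is high where Foxp3 was detected, Tnfrsf4 and Nr4a1 are high where Il2ra was detected, and Il7r, Igfbp4 and Id2 are high with neither.

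Most proliferation genes were higher. Of the list, 11 of 13 members measured (of 20) were higher and 0 lower, against 4.05% and 4.82% of all genes. The median ratio was 1.77 and 1.80. Top2a, the topoisomerase of dividing cells, was at 676 against 147 CPM in the Foxp3eGFP and 378 against 87.7 CPM in the Lta-/- mouse. Its ratios were 2.20 (1.98 to 2.43) and 2.11 (1.77 to 2.46). Ube2c, a ubiquitin-conjugating enzyme of mitotic exit, had 2.77 and 3.19, and Nusap1, a spindle protein, 2.44 and 2.72. The PCNA-binding factor gene Pclaf had 1.77 and 4.25, the latter on 12 UMIs with both. Of 7 histone genes measured 6 were higher, among them Hist1h1b at 2.78 and 2.76.

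The level of these genes with both transcripts rested on few cells. In the Lta-/- mouse 1 cell of cluster 4 gave 87.5% of the 16 Ube2c UMIs of that class, 81.3% of the Nusap1, 85.0% of the Hist1h1b and 52.1% of the Top2a UMIs. Without it the Lta-/- ratio was 6.16 (4.31 to 9.21) for Ube2c, on 2 UMIs, 5.11 (3.56 to 7.39) for Nusap1, on 3 UMIs, 5.46 (4.54 to 6.59) for Hist1h1b and 3.14 (2.66 to 3.66) for Top2a. The Pclaf ratio was 5.80 (4.44 to 7.68), on 4 UMIs. The sign of these 5 ratios was the same with and without that cell, and their size in the Lta-/- mouse depended on it. In the Foxp3eGFP mouse the cell with the most Top2a UMIs gave 25.7% of them, and without it the Top2a ratio was 2.61. The counts with both rested on few cells there too. For these 5 genes the 3 cells with the most UMIs gave from 57.7% (Top2a) to 89.7% (Hist1h1b) of them. With the cell of each mouse that had the most Top2a UMIs left out, 119 genes were higher, 108 of them among the 111. This was chosen after seeing the data.

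These ratios came from a minority of cells. A UMI of Mki67 or Top2a was found in 27.7% (24.7 to 30.8) of the cells without either transcript and 18.9% (13.0 to 26.2) of those with both in the Foxp3eGFP mouse. The shares were 20.9% (18.3 to 23.7) and 15.7% (9.55 to 23.6) in the Lta-/- mouse, where the intervals overlap as they do in the other. After thinning they were 24.7% against 16.2% and 18.1% against 12.2%. In the thinned cells of the Foxp3eGFP mouse, Mki67 was found in 18.5% (15.96 to 21.22) against 8.11% (4.26 to 13.73), without overlap. In the Lta-/- mouse it was found in 11.3% (9.3 to 13.49) against 5.22% (1.94 to 11.01), with overlap. Top2a was found in 10.5% of the thinned cells of cluster 3, where Mki67 was found in 0.45%. A UMI of Top2a alone may thus not mark a dividing cell. The cells without either transcript that held Mki67 or Top2a were deep, at medians of 12876 and 11188 UMIs. With cells holding Mki67 or Top2a left out, 59 genes were higher and 113 lower, and 4 division genes turned to lower: Ube2c (-0.30), Hist1h1b (-0.22), Hist1h2ae (-0.39) and Hist1h3c (-0.60), as means of the 2 mice. Ctla4 then stood at -2.82 and Tcf7 at 1.30.

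The promoters of Top2a and Ube2c are shown because division genes lead the higher group and both hold repeated CCAAT boxes, the element bound by the factor NF-Y. The 250 bases before the RefSeq start are given 5′ to 3′ along the gene's strand, with capitals for CCAAT or its complement ATTGG. Top2a lies at chr11:99024190-99024439 (minus strand) and Ube2c at chr2:164769679-164769928 (plus strand), both GRCm38.
Top2a: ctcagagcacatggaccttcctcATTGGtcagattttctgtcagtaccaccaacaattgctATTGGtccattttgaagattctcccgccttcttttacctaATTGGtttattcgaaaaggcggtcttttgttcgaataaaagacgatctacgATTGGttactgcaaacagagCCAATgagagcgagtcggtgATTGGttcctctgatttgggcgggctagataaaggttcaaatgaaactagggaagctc
Ube2c: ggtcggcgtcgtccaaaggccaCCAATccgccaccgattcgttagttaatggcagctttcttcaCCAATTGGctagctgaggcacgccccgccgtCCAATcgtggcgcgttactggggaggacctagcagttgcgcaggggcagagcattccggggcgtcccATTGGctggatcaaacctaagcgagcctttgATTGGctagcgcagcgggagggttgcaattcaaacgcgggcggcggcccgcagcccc
Each window holds 6 matches on the strands together, and in Ube2c a pair of them overlaps. Of the 111 higher genes, 87 had a promoter in the RefSeq table, and 46 of these (52.9%) held CCAAT on either strand. It was found in 30 of 103 lower genes (29.1%), in 35.9% of the 2198 measured genes with a promoter and in 34.5% of all 27025 promoters. The TCF and LEF core TTTGAA was found in 18.4% of higher and 9.71% of lower genes, against 10.9% of measured genes and 16.3% of all promoters. The STAT motif TTCNNNGAA was found in 2.30% of higher and 7.77% of lower genes, against 5.46% and 7.18%. The E2F motifs TTTGGCGC or TTTCCCGC were found in 2.30% and 1.94%, against 3.55% and 1.35%. The NF-kB core, GGG and CC with any 5 bases between them, was found in 63.2% of higher and 59.2% of lower genes, against 60.5% and 45.4%. All were searched on both strands, and a match is a description of the letters in the window.

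Differences remained among cells of the same cluster. In the mature Treg-like cluster 0, 103 cells without either transcript and 65 with both in the Foxp3eGFP mouse had medians of 6358 and 6502 UMIs, and 122 and 62 cells in the Lta-/- mouse had 6054 and 6178. There 6 of 13 and 8 of 12 measured Treg core genes were at least 1.5-fold lower without either transcript and 0 higher. Over all genes measured in the cluster, 195 of 2885 and 217 of 2832 were lower. Rgs1 was at -3.65 (-4.50 to -2.90) and -2.36 (-2.86 to -1.89), Ctla4 at -1.85 and -2.04, and Pim1 at -2.60 and -3.13. Sox4 (1.18 and 1.65) and Tcf7 (1.15 and 1.75) stayed higher within the cluster. Ccr9, Itm2a and Il7r did not, with intervals that held 0 in both mice.

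Igfbp4 was among the genes whose direction depended on the cluster. It was higher without either transcript over all cells but at -0.74 (-1.65 to 0.15) and -1.33 (-2.06 to -0.61) in cluster 0 and -2.55 (-3.20 to -1.89) in cluster 1. In cluster 6 it was at 1.18 (0.57 to 1.82). Clusters 1 and 6 held too few cells with both in each mouse, so their 2 mice were summed. In cluster 1, with 423 cells without either transcript and 41 with both, 7 of 12 Treg core genes were lower and 1 higher, and 7 of 10 immature genes were higher and 0 lower. Over all 2956 genes measured there, 236 were higher and 258 lower. Cells without either transcript there had Gpr83 at -3.80 and Hopx at -3.11. Il7r was at -0.75 (-1.36 to -0.10) in cluster 1, and Top2a, on 11 UMIs with both, at -1.27 (-2.26 to -0.16). Over all cells Il7r and Top2a were higher without either transcript. In cluster 6, with 53 and 61 cells, Ctla4 was at -1.15 (-1.83 to -0.51) and S1pr1 at -0.07 (-0.39 to 0.25). Weighted to the clusters of the cells with both, the mean ratio over the mice was -2.52 for Rgs1, -1.89 for Ctla4, -0.54 for S1pr1, 0.65 for Il7r, 0.42 for Igfbp4 and 1.03 for Tcf7.

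**Figure D5:**
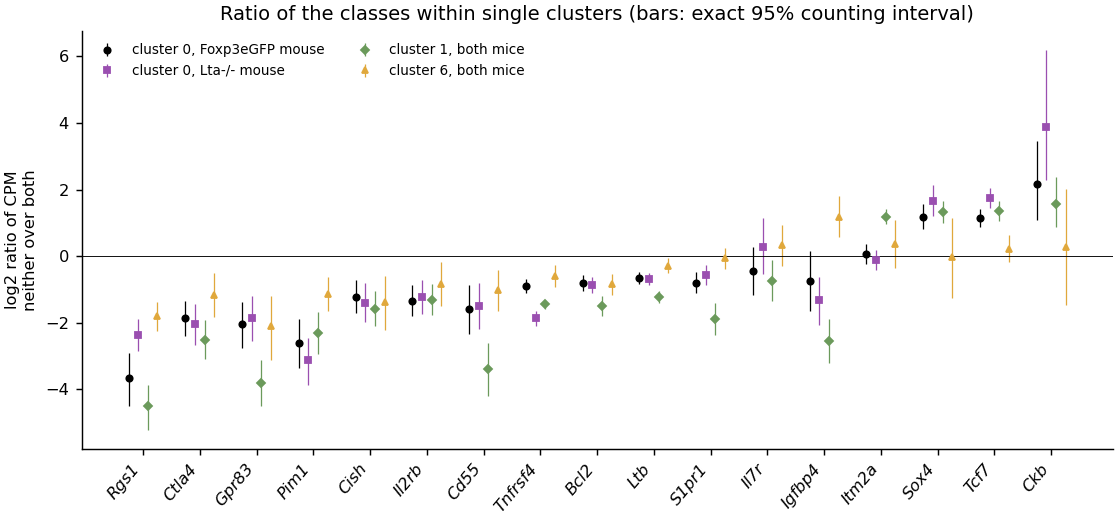
Log2 ratio (neither over both) of 17 genes within single clusters, with exact 95% counting intervals; circles and squares are cluster 0 in the Foxp3eGFP and the Lta-/- mouse, diamonds cluster 1 and triangles cluster 6 with the 2 mice summed. Rgs1, Ctla4, Gpr83 and Pim1 lie below 0 in all 4, and Igfbp4 lies below 0 in clusters 0 and 1 and above 0 in cluster 6.

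The remaining leading genes by size, not yet named, were as follows. Among the 15 lowest, the transcriptional cofactor gene Hopx had ratios of -2.59 and -3.04, Cd55, which encodes a complement inhibitor, -2.81 and -2.30, and Gsta4, a glutathione transferase gene, -2.69 and -2.18. The list also held Ecm1, Mxd1 and Fam169b, with ratios from -2.52 to -1.73. Among the 15 highest, the brain creatine kinase gene Ckb was at 140 against 29.4 CPM and 149 against 9.62 CPM (8 UMIs), ratios of 2.25 and 3.95. The rest of them were division or histone genes (Cenpf, Stmn1, H2afx, Hist1h2ap, Hist1h2ae, Hist1h1e and Hist1h3c), with ratios from 1.67 to 3.78. Without the Lta-/- cell of cluster 4 described above, their Lta-/- ratios ranged from 2.35 to 5.62. In the Foxp3eGFP cells with both, the 3 cells with the most UMIs gave from 41.2% (Hist1h1e) to 94.5% (Hist1h2ap) of their UMIs. Histone genes have near-identical copies, so counts may be split between them.

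The ratios were compared between the mice as values, since the difference cannot be tested with 1 mouse each. Genotype and mouse cannot be told apart. The 6 genes whose ratio was lowest in the Foxp3eGFP relative to the Lta-/- mouse were Dap, BE692007, Gpr183, Lig1, Dtymk and Ppp1cb. BE692007 was at 46.9 against 158 CPM (-1.75, -2.01 to -1.49) in the Foxp3eGFP and 71.4 against 109 CPM (-0.62, -0.94 to -0.28) in the Lta-/- mouse. Gpr183, an oxysterol receptor that guides lymphocyte migration, had -0.37 (-0.64 to -0.09) and 0.65 (0.20 to 1.13). In the other direction were Iigp1, Kdelr1, Hist1h1c, Trim59, Supt5 and Thy1. Iigp1, an interferon-induced GTPase, was at 73.6 against 140 CPM (-0.93) and 51.0 against 212 CPM (-2.05, -2.31 to -1.79). Of the interferon response list, 3 of 15 measured genes (of 22) were lower in both mice and 0 higher, against 4.82% and 4.05% of all genes. The medians of the list were -0.38 and -0.50. In the Foxp3eGFP mouse alone 3 of its measured genes were lower, and in the Lta-/- mouse alone 7, against 6.43% and 6.57% of all genes. Per thinned cell its medians were 24 and 16 UMIs without either transcript and 33 and 27 with both.

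Markers of other cell types moved with the classes. The summed plasma cell markers stood at 1322 CPM without either transcript and 68.0 CPM with both in the Foxp3eGFP mouse, and at 49.8 and 72.1 CPM in the Lta-/- mouse. Markers of natural killer or innate lymphoid cells also changed direction, at 81.8 against 123 CPM and 136 against 36.1 CPM. How many cells gave the UMIs of each marker list was not examined. B cell markers were at 592 against 105 CPM and 228 against 133 CPM, and myeloid or dendritic markers at 234 against 108 CPM and 262 against 111 CPM. In the cells with Foxp3 only, B cell markers were at 647 and 155 CPM and myeloid or dendritic markers at 346 and 114 CPM. With both transcripts, 7 of the 10 myeloid markers were at 0 in each mouse, and 4 of the 10 B cell markers were. That class held only 1190465 and 832011 UMIs, against 7840020 and 7605937 without either transcript, so a rare marker is more easily missed there. Gamma-delta T markers were at 89.0 against 49.6 CPM and 46.4 against 21.6 CPM, and erythroid markers were at or near 0 in all classes. With cells holding 3 or more UMIs of B cell, plasma cell, myeloid or erythroid markers left out, 90 genes were higher and 112 lower, and the part of these cells in single genes was not tested.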

How the data were processed

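Droplet 3' single-cell RNA and hashtag libraries of 1 capture were used. The deposited matrix holds UMI counts that the authors had not normalized, per the file headers. The submitters' processing notes name Cell Ranger 6.0.1 and mm10 (GRCm38). The alignment settings were not given. The members and lists were chosen with earlier results of these data known.

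Filters removed 160 of 4798 barcodes for genes or mitochondrial counts, then 185 with 2 hashtags and 1794 assigned cells under 5000 UMIs. No doublet caller was run. Counts were summed by class and mouse, with exact conditional binomial (Clopper-Pearson) intervals of ratios and exact binomial intervals of shares at 95%. In data simulated for the Foxp3eGFP ratio, the interval held the true value for 95.5% of 2538 unchanged genes. Coverage was 92% among 50 genes raised 2-fold and 90% among 50 genes with a true ratio of 0.25. Of 50 genes raised 1.5-fold, 52% passed the 1.5-fold limit. Whether this coverage holds where 1 cell gives most UMIs of a gene was not tested. Clusters came from 2000 variable genes (1916 after the gate, lymphotoxin, receptor and sex-linked genes were left out), 30 principal components, 15 neighbours and Leiden resolution 0.6 (scanpy 1.11.5, igraph 0.11.9, Python 3.11.15).

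The genes named were the 15 with the largest mean ratio in each direction among called genes, up to 4 measured members per list, and 6 per direction for the difference between mice with at least 20 UMIs in each class. Genes named beyond this rule, such as Lta, Lrrc32, Ikzf2, Cd8a and Xcl1, were chosen after their values were seen. Some genes that the rule selects are not reported here. Ribosomal, mitochondrial, receptor segment, sex-linked and unnamed genes were left out. Alternatives changed depth, thinning, class threshold, weighting, filters and cells. Columns of per-sample values left unused numbered 0. Positions are from RefSeq (GRCm38).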

Additional observations from a re-analysis of the deposited data

Results flagged for a closer look

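Xcl1, which encodes the chemokine lymphotactin, had ratios of opposite sign in the mice, past 1.5-fold with intervals that excluded 0 in each. It was at 33.0 against 501 CPM in the Foxp3eGFP mouse (-3.92, -4.14 to -3.71) and at 34.8 against 2.40 CPM in the Lta-/- mouse (3.86, 1.99 to 6.91), a difference of -7.78. The difference was not tested, as there was 1 mouse per genotype. A single cell of cluster 1 gave 554 of the 596 UMIs in the Foxp3eGFP cells with both transcripts (92.95%), and the Lta-/- cells with both held 2 UMIs. Without that cell the Foxp3eGFP ratio was -0.12 (-0.59 to 0.39). In the cells with neither, 69 and 56 cells had a UMI of Xcl1, and the 3 cells with the most gave 35.1% and 44.2% of the UMIs. Xcl1 did not pass the filter in the Lta-/- mouse and entered none of the counts above. It lies outside the rule for named genes. Among genes past the filter in both mice 0 had such opposite ratios, and both the wider search, which asked for a mean of at least 50 CPM in only 1 mouse, and the value without the single cell were chosen after the data were seen.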

How the results depend on the processing

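The counts of 111 higher and 132 lower genes were recomputed under 17 alternatives. Higher genes numbered 59 without cells holding Mki67 or Top2a (40 shared with the 111). They numbered 18 when weighted to the clusters of the cells with both (11 shared). At a mean of at least 20 and 100 CPM there were 296 and 55, and with both mice pooled 192. Lower genes numbered 54 under the cluster weighting (51 shared with the 132), and 253 and 65 at 20 and 100 CPM. Under the other alternatives the counts ranged from 75 to 156 higher and from 111 to 172 lower. A similar count did not always mean the same genes. At 8000 UMIs or more, 73 of 147 higher genes were among the 111. With classes called again after thinning 80 of 150 were, and with at least 2 UMIs of each gate gene 89 of 156. Without clusters 7 and 8, chosen after seeing the data, there were 128 higher and 140 lower. The share without either transcript in the Foxp3eGFP mouse was 69.7% at 8000 UMIs or more, 69.4% after thinning and 60.6% without cells holding Mki67 or Top2a, and in the Lta-/- mouse 74.6% after thinning. Ratios, as means of the mice, reversed for Hist1h1b (-0.22), Hist1h2ae (-0.39), Hist1h3c (-0.60) and Ube2c (-0.30) without cells holding Mki67 or Top2a, for Ifit3 (0.44) at 8000 UMIs, and for Lig1 (-0.14) under the cluster weighting; the cause was not tested. Of the other values of named genes under an alternative, 998 moved by less than their interval and 240 by more. No paired analysis was possible because there was 1 mouse per genotype and no shared replicate numbers. Depth limits genes with few UMIs among the 263 cells with both, such as Nrgn.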

Other observations

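Further gene groups were measured in the same way. Of 79 ribosomal protein genes measured, 0 passed 1.5-fold in either direction in both mice, with medians of -0.13 in each mouse, and of 12 mitochondrial genes 0 did. Of all genes, 4.05% were higher and 4.82% lower in both mice. Of 14 measured genes of the T cell receptor complex and its kinases, 1 was higher and 0 lower, against these shares. It was Cd28, the costimulatory receptor, at 0.69 and 0.61. Of 11 measured MHC class I genes 0 were called in both mice, against the same shares. In the Lta-/- mouse alone 4 were lower, against 6.57% of all genes, and the medians were -0.38 and -0.43. H2-K1, a classical class I heavy chain gene, was at -0.58 and -0.79. Per thinned cell the class I list had medians of 30 and 28 UMIs without either transcript and 39 in each mouse with both, and 28.6% and 21.3% of the cells without either reached the median of those with both. Of 14 measured genes of glycolysis and Myc-linked metabolism, 3 were higher (Pgk1 at 0.87 and 0.84, Pkm at 0.79 and 0.65, Nme1 at 0.67 and 0.62) and 0 lower, against 4.05% of all genes higher. In the Lta-/- mouse alone 5 were higher, against 7.85% of all genes. Per thinned cell this list had medians of 29 and 30 UMIs without either transcript and 22 and 24 with both. Of 7 measured genes of effector and recirculating Treg cells, 1 was higher (S100a11 at 1.04 and 0.63) and 0 lower, against 4.05% and 4.82% of all genes. The chemokine ligand list had 0 of 4 members past the filter.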
